A study of Mus musculus with 4 samples.

Results

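Guanylate-binding proteins (GBPs) and immunity-related GTPases (IRGs) are interferon-inducible enzymes that bind and hydrolyse GTP. The family was followed through 10 mouse genes, chosen by gene symbol: Gbp2, Gbp3, Gbp4, Gbp5, Gbp7, Gbp8, Gbp9, Irgm1, Irgm2 and Igtp, the last also called Irgm3. They are 10 of the 14804 genes with a listed N6-methyladenosine (m6A) peak in these data. The genes were chosen with their measured values known, so the values below describe them and support no test. The cells were mouse macrophages grown from bone marrow with macrophage colony-stimulating factor for 7 days and then cultured for 24 hours with MC38, a line of mouse colon carcinoma cells. All mice were C57BL/6 and carried loxP-flanked Mettl3 alleles. The WT group had the genotype Mettl3fl/fl, and the conditional knockout (cKO) group had the genotype LysM-cre, Mettl3fl/fl, with the recombinase driven by a myeloid promoter that is active in macrophages and neutrophils. Each genotype had 1 library of RNA fragments pulled down by antibody against m6A (IP) and 1 of the fragments before capture (input). No comparison therefore has replicates, each difference is between single libraries, and the read depth is unknown. The input level of Mettl3 was not analysed here, so the genotype labels were not checked.

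Interferon gamma, and more weakly the type I interferons, switch these genes on, in part through the transcription factor Irf1. GBPs gather on vacuoles that hold microbes and on bacteria in the cytosol, where they open the membrane and bring in inflammasomes. IRGs coat vacuoles in the same way, and the Irgm proteins keep them off the cell's own membranes. Mettl3 writes m6A into messenger RNA, mostly near stop codons and in 3' untranslated regions (UTRs), in a sequence context whose most common core is GGAC.

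The genes lie in 4 places on 3 chromosomes of the mm10 build. Gbp5, Gbp7, Gbp3 and Gbp2 follow each other on the plus strand of chromosome 3 (chr3:142493978-142638008). Gbp8, Gbp9 and Gbp4 lie on the minus strand of chromosome 5 (chr5:105014150-105139586) with overlapping gene models. Irgm1 lies on the minus strand of chromosome 11 (chr11:48861968-48871683), and Igtp and Irgm2 overlap on its plus strand (chr11:58199556-58222782). The sequence shown for each gene is 21 bases of the transcript around the GGACT nearest to the stop codon within its strongest WT peak, with GGACT, the m6A context looked for, in capitals. The sequences are from the GENCODE M21 transcripts.
Gbp2: ttctctgaGGACTttttctac
Gbp4: gccagcctGGACTtctctcag
Gbp5: agactgaaGGACTtcagacaa
Gbp7: tccattgaGGACTccattatg
Gbp8: attcctgtGGACTgaagacac
Gbp9: attcctgtGGACTgaagacac
Irgm1: atcctgagGGACTccatcttc
Irgm2: gataggatGGACTaagaagtc
Igtp: gctctaaaGGACTctgtcctc

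The Igtp site (chr11:58207238-58207258) and the Irgm1 site (chr11:48865816-48865836) are in coding sequence, and their GGACT begins at -28 and -25 as counted from the first base of the stop codon. The Gbp7 site (chr3:142545489-142545509) is coding as well, at -502. The other sites are in 3' UTRs, 72 bases past the first base of the stop codon in Gbp5 (chr3:142521224-142521244), 369 in Gbp9 (chr5:105079676-105079696), 375 in Gbp2 (chr3:142637858-142637878), 406 in Gbp8 (chr5:105014533-105014553), 456 in Gbp4 (chr5:105117812-105117832) and 1551 in Irgm2 (chr11:58222213-58222233). The windows of Gbp8 and Gbp9 are the same in 21 of 21 bases. No other pair agreed in more than 13, the number for Irgm1 and Igtp. These numbers include the GGACT itself, which every pair shares because the windows were placed on it. The strongest WT peak of Gbp3 held no GGAC, so no window is shown for it.

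The first comparison asks how transcript levels of these genes differed between the input libraries. Input levels were held for 7307 genes, 8 of the 10 among them. Every one of these 8 genes was lower in the cKO library, by 1.62-fold to 3.72-fold. Of the 6079 genes with a mean of at least 1 FPKM, 3295 were lower and 2784 higher. Gbp2 and Igtp have no value, because FPKM, a fragment count scaled by length and sequencing depth, was held only for genes with a listed differential peak. Gbp3 had 26.4 FPKM in the WT library and 9.92 in the cKO library, a 2.66-fold lower level. In such bulk libraries, fewer cells that express a gene and less of its RNA per cell cannot be told apart. Gbp7, a GBP linked to the oxidase that makes superoxide and to autophagy, had 25.4 and 13.5 FPKM, or 1.88-fold. Gbp5, which promotes assembly of the NLRP3 inflammasome, had 10.6 and 4.73 FPKM, or 2.23-fold. These 3 genes are neighbours on chromosome 3.

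Among the followed genes with a value, Gbp8, Gbp4 and Gbp9 on chromosome 5 had the lowest levels, and Gbp8 and Gbp4 the largest folds. Gbp8 had 1.72 FPKM in the WT and 0.464 in the cKO, 3.72-fold lower. Gbp4 had 1.85 and 0.675 FPKM, 2.73-fold lower, and Gbp9 had 4.98 and 2.21 FPKM, 2.25-fold lower. Among the IRGs, Irgm1, needed by mice to control mycobacteria, had 18.6 FPKM in the WT and 9.04 in the cKO, 2.05-fold lower. Irgm2 had 13.8 and 8.53 FPKM, and at 1.62-fold its difference was the smallest. In the WT library the order of levels per length ran from Gbp3 and Gbp7 through Irgm1, Irgm2 and Gbp5 to Gbp9, Gbp4 and Gbp8, and in the cKO library Gbp7 stood above Gbp3 and the rest kept this order. Whether neighbours in this order differ beyond their spread is unknown with 1 library each.

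**Figure D1:**
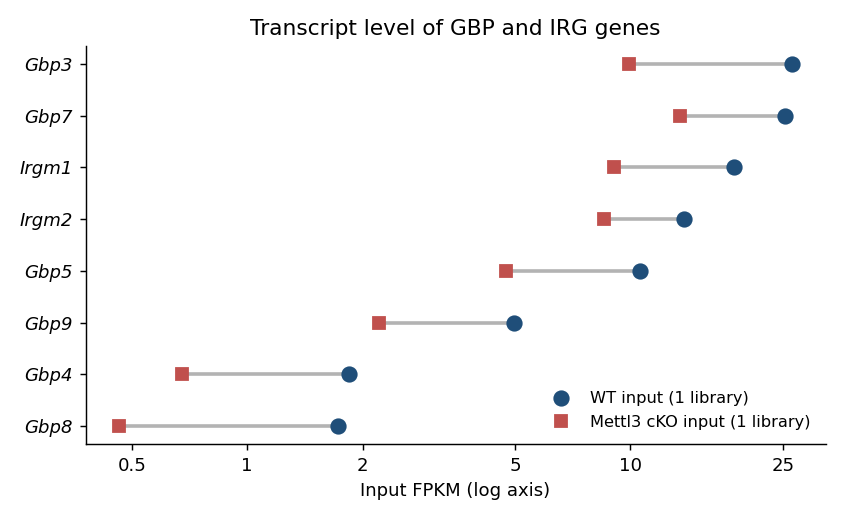
Input level in FPKM (log axis) of the 8 genes with a value, with the WT library as a circle and the Mettl3 cKO library as a square, 1 library each and no error bars. Each square lies left of its circle, from 26.4 to 9.92 FPKM for Gbp3 at the top to 1.72 to 0.464 for Gbp8 at the bottom.

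On the scale of log2(FPKM + 1), which dampens differences of low genes, the 8 genes differed by -0.63 (Irgm2) to -1.32 (Gbp3), cKO minus WT. Their median was -0.90, against -0.02 over the 6079 genes with a mean of at least 1 FPKM. All 8 were at least 1.5-fold lower on this scale, as were 1.66% of the genes tested. Gbp3 and Gbp5 were at least 2-fold lower, as were 0.428% of them. With 5 added to each FPKM in place of 1, 4 of the 8 were past 1.5-fold, since the low genes Gbp4, Gbp8 and Gbp9 were at -0.27, -0.30 and -0.47, and Irgm2 at -0.47. Gbp3 was the 14th lowest of the 6079 genes and Irgm2 the 80th. The authors' deposited table calls Gbp3 (p 0.0365), Gbp4 (p 0.0326) and Gbp8 (p 0.00676) different, each with a q of 1, and none of the other 5, whose p ran from 0.0825 for Gbp9 to 0.302 for Irgm2. It calls 0.342% of all genes with a value lower.

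Similar genes can exchange reads, and this was measured on the transcripts. For 6 of the 10 genes, none of the stretches of 150 bases, the read length, occurs in a transcript of another gene. In Gbp7 8.93% do, all in the annotated transcript Gm43802, and in Igtp 0.854%, in Irgm2. At 50 bases the share was 21.2% in Gbp8, 12.8% in Gbp7 and in Gbp4, 12.3% in Igtp, and between 0.814% (Irgm1) and 9.56% (Gbp9) in the others. How the authors treated reads with several matches is not given in the sources used here. The values of Gbp7, Gbp8, Gbp4, Gbp9, Igtp and Irgm2 are therefore uncertain.

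The next comparison asks where m6A peaks lay on these transcripts. Each genotype had 26 listed peaks in the 10 genes, among 36507 WT and 38697 cKO peaks, and every gene had at least 1 in each. In the authors' annotation, 17 of the WT peaks lay in 3' UTRs, 7 in other exonic sequence and 2 in 5' UTRs. In the cKO the numbers were 15, 6 and 4, with 1 intronic peak. The 3' UTR share, 65.4% for WT and 57.7% for cKO peaks, stood beside 56.2% and 55.7% over all peaks. The values of the peaks are the authors' log2 of IP over input. Their median over the 10 genes was 1.16 in the WT, from 0.57 to 4.01, and 1.62 in the cKO, from 0.63 to 4.56, beside 1.22 and 1.30 over all peaks.

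The strongest peaks, those of Gbp5, Irgm1 and Gbp7, lay across the stop codon. On 1 transcript per gene, 8 genes had a WT peak listed under their name that held the stop codon, and 6 of them had such a cKO peak. Gbp2 and Gbp8, with WT peaks at 0.68 and 2.01, had none in the cKO. Gbp3 had none in either genotype, and Irgm2 had none under its own name, though the peak listed for Igtp runs over its coding sequence and past its stop codon in both. On the transcripts that the authors list, 7 of 26 WT peaks (26.9%) and 5 of 25 cKO peaks (20.0%) of the 10 genes held the stop codon. Over all peaks placed on coding transcripts the shares were 19.5% and 18.2%. Gbp5 carried the strongest peak of the family in both genotypes, at log2 4.01 in the WT and 4.56 in the cKO. These stood at the 97.6th and 98.9th percentile of their lists. The WT peak ran through 405 coding bases and the 1185 bases from the stop codon to the 3' end (chr3:142507147-142522344). In the cKO list the same genomic span held 3 peaks, at 1.80, 2.15 and 4.56, of which the last (chr3:142518878-142522344) covered the 3' end. On the transcript used for the WT peak, the peak at 2.15 has no exonic bases and the one at 4.56 holds the stop codon. On the transcript listed for the last 2 of these cKO peaks, the one at 2.15 holds it. No one-to-one pair therefore exists for the main Gbp5 peak.

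Irgm1 was covered from its 5' UTR to its 3' end by a WT peak at log2 3.79 (chr11:48865043-48871323), which held 19 GGAC and, among them, 7 GGACT. In the cKO the matching peak was at 3.41, with separate peaks of 1.61 at the 3' end and 0.81 at the 5' end. Gbp7 had a peak across its stop codon at 3.78 in the WT (chr3:142543998-142549010) and 3.60 in the cKO. The corresponding peaks were at 2.73 and 1.96 in Gbp4, 2.13 and 2.04 in Gbp9, and 2.20 and 2.14 in Igtp. The authors name the Gbp4 peak (chr5:105116897-105121833) a 3' UTR peak on a transcript with an early stop codon, while 766 of its bases are coding in another Gbp4 transcript. The WT peak listed for Gbp4 at its 3' end (chr5:105105775-105115996) also covers 170 exonic bases of Gbp9, 73 of them coding. The Igtp peak (chr11:58201669-58221232) covers 1597 exonic bases of Igtp and also 1978 of Irgm2, 1221 of them coding, so its signal cannot be given to 1 of these genes. Under its own name Irgm2 had listed peaks in its 3' UTR alone.

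**Figure D2:**
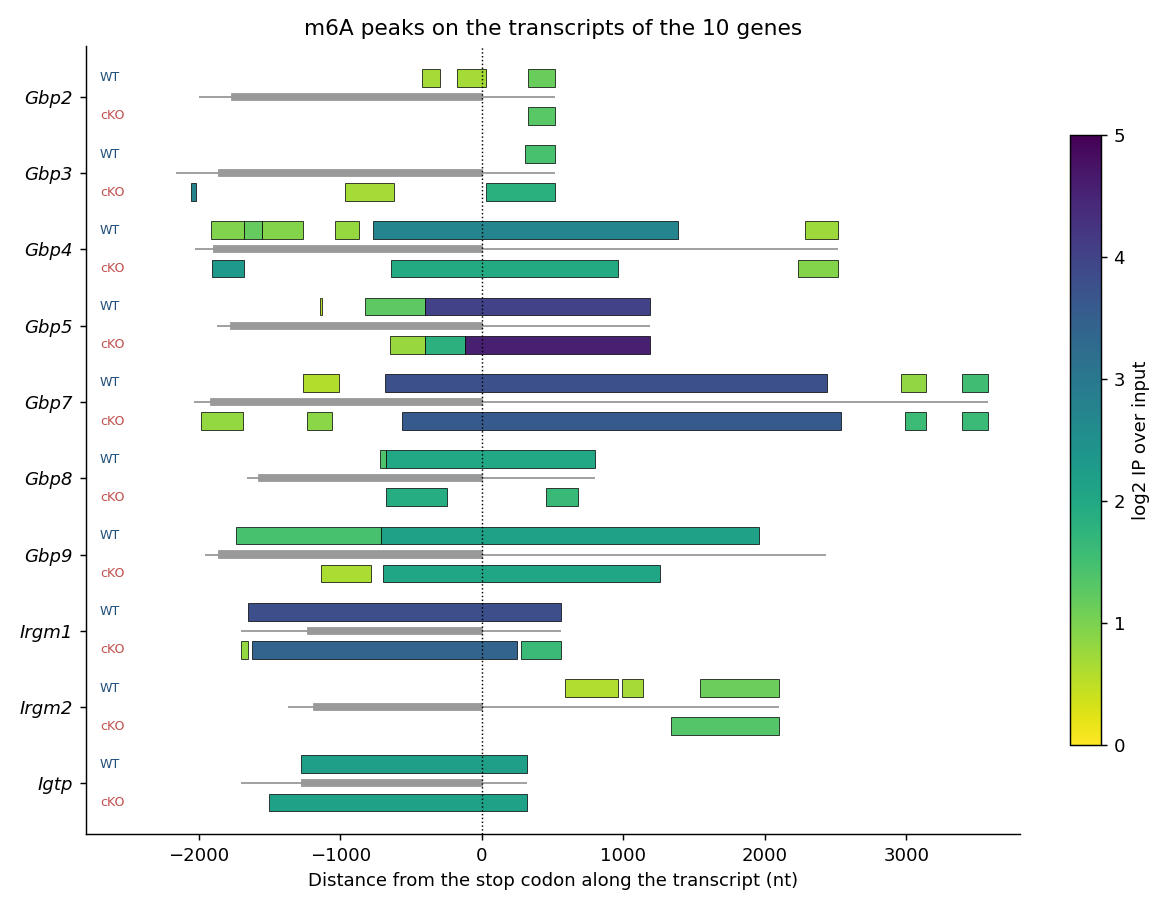
Listed m6A peaks on 1 transcript per gene, by distance from the stop codon in nucleotides, with WT peaks above and cKO peaks below each transcript (thick grey for coding sequence, thin grey for UTRs) and colour for log2 IP over input. Dark peaks, up to 4.01 in the WT and 4.56 in the cKO, lie across the stop codon of Gbp5, Gbp7 and Irgm1, and 2 Gbp5 cKO peaks, 1 intronic and 1 on another transcript, are not drawn.

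GGAC was about as common in these peaks as elsewhere. At least 1 GGAC was present in 18 of 26 WT peaks (69.2%) and in 15 of the 25 cKO peaks with exonic sequence (60.0%), beside 65.1% and 64.6% over all peaks with such sequence. The density was 4.24 and 4.28 per kb, beside 4.38 and 4.34. The median exonic length was 243 bases in the WT and 300.0 in the cKO, beside 300.0 and 302. Strong peaks differed in their number of sites. The main WT peaks of Irgm1, Gbp9, Igtp and Gbp7 held 19, 12, 11 and 10 GGAC, while that of Gbp5 held 2. Their exonic lengths, in the same order, were 2208, 2671, 1597, 3125 and 1590 bases, so these counts are not densities. A match is a run of letters and does not show that the site is methylated.

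The third comparison asks how many peaks both genotypes shared. Of the WT peaks of these genes 17 of 26 (65.4%) overlapped a cKO peak by at least 1 base on the same strand, beside a background of 73.2% over all WT peaks. Of the cKO peaks 21 of 26 (80.8%) overlapped a WT peak, beside 71.3%. The 9 WT peaks without a partner were a coding peak of Gbp2 at log2 0.67 and its peak over the stop codon at 0.68, 3 peaks of Gbp4 between 0.79 and 1.18, a peak each of Gbp5 (0.59) and Gbp8 (1.40), and 2 of Irgm2 (0.59 and 0.68). All but the highest of Gbp4 and that of Gbp8 were below the WT median of 1.16. The 5 cKO peaks without a partner were 2 of Gbp3, 1 intronic peak of Gbp5 (0.75) and the 5' UTR peaks of Gbp7 (0.82) and Irgm1 (0.81). The Gbp3 pair consisted of a coding peak at 0.68 and a 5' UTR peak at 2.77 that covers 33 exonic bases.

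One-to-one matches were found for 14 peaks, of which 6 were lower and 8 higher in the cKO, and the median difference was 0.12. Over all 19387 such peaks the median was 0.04 and 45.2% were lower. The lowest values were those of the Gbp9 coding peak (1.46 in the WT, 0.63 in the cKO), the main Gbp4 peak (2.73 and 1.96) and the Gbp5 coding peak (1.25 and 0.78). The highest were those of a Gbp4 peak across its start codon (0.96 and 2.32), a 3' UTR peak of Gbp7 far from the stop codon (0.84 and 1.58) and the 3' end peak of Gbp3 (1.46 and 1.83). The 3' end peaks of Gbp2 (1.15 and 1.29) and Gbp7 (1.52 and 1.61), at identical positions in both lists, differed by 0.15 and 0.08. With an overlap of at least 50% of both peaks 12 pairs were left and their median difference was -0.078, with 58.3% lower, beside 0.026 and 47.2% over all 17809 such pairs.

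The fourth comparison takes the differences in m6A enrichment that the authors list. For 8 of the 10 genes the authors' deposited table lists 9 differential peaks, 7 lower and 2 higher in the cKO. Over its 10355 peaks 51.1% were lower and 48.9% higher. The input values above exist through these peaks, and Gbp2 and Igtp have none. For Irgm1 the authors' deposited table gives enrichment values of 3.75 (WT) and 3.35 (cKO), which differ by -0.40 (adjusted p 2.92e-14). The main Gbp7 peak there was at 3.76 and 3.54, or -0.22 (adjusted p 0.000223, from the authors' deposited table). Both are among the strongest peaks of the family, and their differences are the smallest of the 9.

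The main Gbp4 peak was at 2.70 and 1.75 in the authors' deposited table (difference -0.95, adjusted p 0.000593), and that of Gbp8 at 1.95 and 1.15 (-0.80, adjusted p 0.133). The 3 further lower peaks lay in coding sequence. They were those of Gbp9 at 1.63 and 0.52 (-1.11, adjusted p 0.00521, from the authors' deposited table), Gbp5 at 1.21 and 0.57 (-0.64, adjusted p 0.0308) and Gbp4 at 1.12 and -1.24 (-2.36, adjusted p 0.0805). A negative value means that IP was below input on the authors' scale, and how IP was scaled to input is not given. The Gbp4 coding stretch with this value in the cKO is 141 exonic bases of a gene at 0.675 FPKM in the cKO input.

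The 2 higher peaks lay at the very 3' end of their transcripts. The Gbp3 peak (chr3:142572970-142573209) had 1.33 (WT) and 2.66 (cKO) in the authors' deposited table, and so differed by 1.34 (adjusted p 5.38e-08). The Irgm2 peak (chr11:58222183-58222782) had 0.95 and 1.51 in the authors' deposited table, and so differed by 0.56 (adjusted p 0.0374). Neither holds the stop codon, and that of Gbp3 holds 0 GGAC. By its adjusted p, the authors' deposited table holds 5 lower and 2 higher peaks of these genes below 0.05, where 54.3% of all peaks were lower and 45.7% higher. At an absolute difference of at least 1, there were 2 lower peaks, those of Gbp9 and the coding one of Gbp4, and 1 higher, that of Gbp3, where 44.5% of all peaks were lower.

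**Figure D3:**
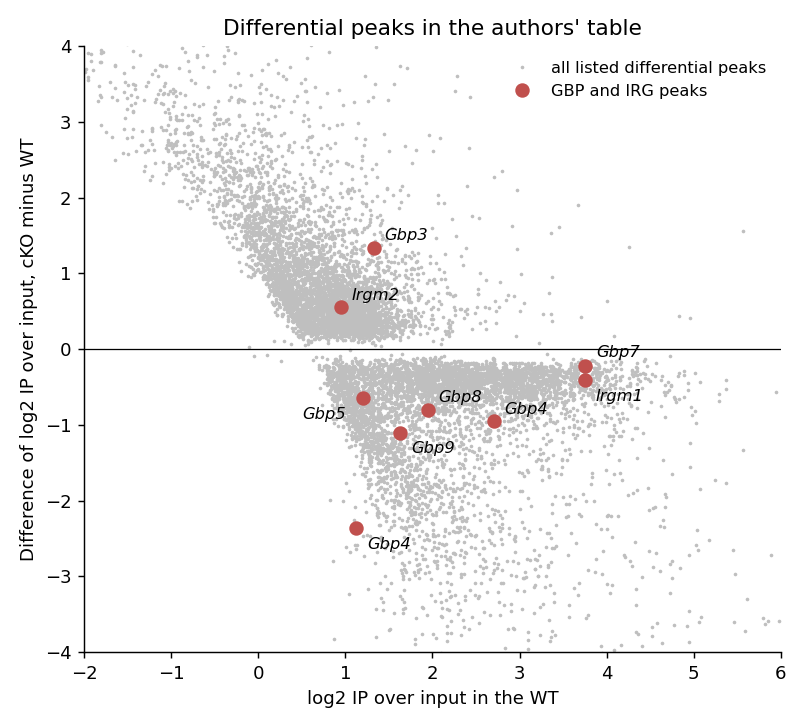
Difference of log2 IP over input, cKO minus WT, against the log2 IP over input in the WT for all listed differential peaks (grey) and the 9 peaks of GBP and IRG genes (red), with 376 grey peaks outside the plotted range. Gbp3 at 1.34 and Irgm2 at 0.56 lie above 0, and the 7 others lie below 0, from -0.22 for Gbp7 to -2.36 for the coding peak of Gbp4.

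The same table shows how direction went with strength and position in other genes, where the WT value is itself part of the difference. Among listed differential peaks of other genes, 97.6% of the 1198 with a WT log2 of at least 3 were lower in the cKO, as were those of Gbp7 and Irgm1. Of the 1854 between 2 and 3, the range of the main Gbp4 peak, 93.5% were lower. Between 1 and 2, where Gbp3, Gbp5, Gbp8, Gbp9 and the second Gbp4 peak lie, 58.4% of 3614 were lower. Below 1, where Irgm2 lies, 92.6% of 3680 were higher. By position, 71.8% of the 2430 differential peaks of other genes that reach within 50 bases of the 3' end of their listed transcript, without the stop codon, were higher in the cKO, like those of Gbp3 and Irgm2. Of the 2640 that hold the stop codon 69.4% were lower, like those of Gbp7, Gbp8 and Irgm1. Input was at least 1.5-fold lower for these 3 genes, and of the 39 such peaks in other genes with input that much lower 48.7% were lower.

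Input is the denominator of these values, and it was lower in the cKO for all 8 genes. The log2 ratio of input FPKM, cKO over WT, was -1.41 for Gbp3 and -0.69 for Irgm2, whose peaks were higher. It was -0.91 for Gbp7, -1.04 for Irgm1, -1.16 for Gbp5, -1.17 for Gbp9, -1.45 for Gbp4 and -1.89 for Gbp8, whose peaks were lower. Among other genes with an input at least 1.5-fold lower, 58.1% of 117 differential peaks were higher, and among those within 1.5-fold 49.1% of 8457. Across the 8696 differential peaks of other genes with a mean of at least 1 FPKM, the difference in enrichment had a Spearman rho of -0.12 with the difference in input, 2 quantities that share the input libraries. The part of the input level in the differences of the GBP and IRG peaks was not tested.

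Promoters of the genes were also read for interferon-type motifs. The RefSeq promoter table (GRCm38.p6, the same assembly as mm10), with 250 bases before and 50 after a start, matched 7 of the genes, and Gbp4, Gbp8 and Gbp9 were not matched. A pair of motifs was searched on both strands. The core of the interferon-stimulated response element, which Irf proteins bind, is GAAA, any 2 bases and GAAA again. The core of the gamma-activated site, an element of promoters that respond to interferon gamma, is TTCNNNGAA. The response element core was present in 7 of the 7 genes, beside 3.99% of the 27025 genes in the table. The gamma-activated site core was present in 4 of the 7, Gbp5, Gbp7, Irgm2 and Igtp, beside 9.55% of genes. A match does not show binding. The part of these motifs, or of the Irf1 level given below, in the input differences was not tested. The response element core nearest to the start is shown for each gene with 8 bases on either side and the match in capitals, on the strand of the gene, where a pair of TTTC is the same motif read from the other strand.
Gbp2: tcttttagTTTCACTTTCactgtctt
Gbp3: agtttcagTTTCTATTTCccagatcc
Gbp5: ttgtgtagTTTCAATTTCagtttaga
Gbp7: gtgtgcagTTTCAGTTTCagttctcc
Irgm1: aagaaataGAAACCGAAActgattct
Irgm2: caggaactGAAACTGAAAgctgttcg
Igtp: taggaactGAAACTGAAAgctgttcg

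These stretches lie at chr3:142620596-142620621 (Gbp2), chr3:142559997-142560022 (Gbp3), chr3:142496761-142496786 (Gbp5), chr3:142530275-142530300 (Gbp7), chr11:48871427-48871452 (Irgm1), chr11:58214905-58214930 (Irgm2) and chr11:58199514-58199539 (Igtp). The match began 165 bases before the start in Gbp5 and between 24 and 64 bases before it in the other 6 genes. Gbp3 and Irgm1 each held 2 overlapping matches. In the IRG genes the motif is read in the direction of transcription and in the GBP genes in the other. In Irgm2 and Igtp a TTCNNNGAA begins 75 and 45 bases before the start, next to the response element core but without overlap. A RefSeq start need not be the first base of the GENCODE gene model.

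**Figure D4:**
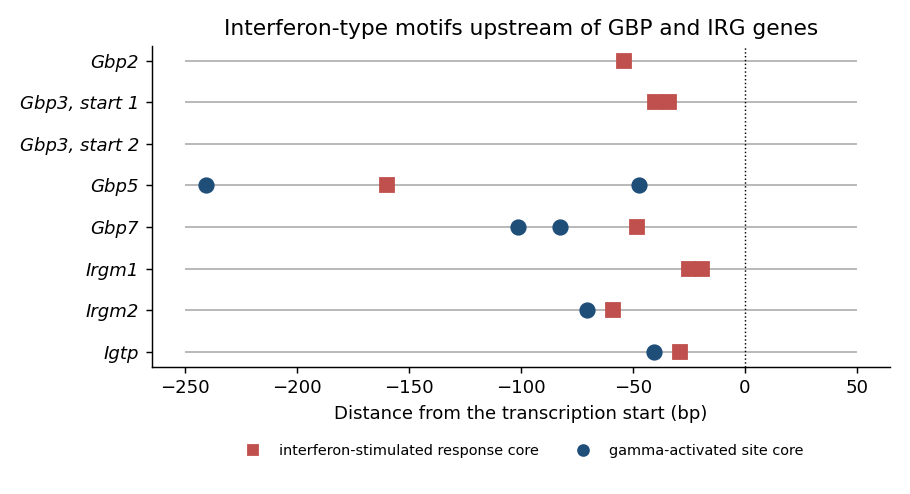
Position of the interferon-stimulated response core (squares) and the gamma-activated site core (circles) from 250 bases before to 50 after the transcription start of the 7 matched genes, with both starts of Gbp3. Each gene has a square, between 24 and 64 bases before a start in all but Gbp5, where it begins at 165.

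Genes that act with these GTPases were described from 4 lists. Of 13 other GBP, IRG and related GTPase genes 5 had a mean of at least 1 FPKM, with 3 lower and 2 higher and a median of -0.060 in log2(FPKM + 1). The 2 at least 1.5-fold lower were Gbp6, a chromosome 5 GBP (25.1 to 14.5 FPKM, a difference of -0.75), and Gvin1, a very large interferon-inducible GTPase (20.0 to 12.6 FPKM, -0.63). Over all genes tested the share that much lower was 1.66%. Atl3, which shapes the endoplasmic reticulum, had 12.8 and 13.7 FPKM, and Irgq 4.44 and 4.62. The median is the value of Rab20, at 28.3 and 27.1 FPKM, so it does not stand for Gbp6 and Gvin1. In the authors' deposited table the main Gbp6 peak had 3.44 (WT) and 2.91 (cKO, adjusted p 2.61e-16), and a second one nearer the 3' end had 0.97 and 2.18 (adjusted p 0.164).

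Of 17 genes of interferon signalling 13 had a mean of at least 1 FPKM, with 9 lower, 4 higher and a median of -0.082. Irf1, which drives GBP genes, had 47.7 FPKM in the WT library and 21.4 in the cKO library, a log2(FPKM + 1) difference of -1.12. Batf2, itself induced by interferon gamma, had 2.49 and 1.17 FPKM, and Irf8 28.0 and 20.4. Irf1 and Batf2 were the 2 genes of this list past 1.5-fold, both lower, beside 1.66% lower and 1.46% higher over all genes tested. The receptor and kinase genes differed less, with Ifngr1 at 16.2 and 15.2 FPKM, Ifngr2 at 45.2 and 50.1 and Jak2 at 49.3 and 43.7. The authors' deposited table lists 22 differential peaks in this list, 6 higher and 16 lower, beside 51.1% lower over all peaks. In the authors' deposited table the other GTPases had 5 higher and 5 lower, the autophagy and ubiquitin genes described next 7 and 5, and the inflammasome genes 4 and 4.

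Of 14 autophagy and ubiquitin genes that help to place the GTPases on vacuoles 8 had a mean of at least 1 FPKM, with 3 lower, 5 higher and a median of 0.046. None was past 1.5-fold, with Sqstm1, a receptor for ubiquitinated cargo, at 185 and 133 FPKM, Ubqln2 at 8.06 and 6.84 and Atg12 at 15.4 and 17.8. Of 11 inflammasome and pyroptosis genes 6 did, with 4 lower, 2 higher and a median of -0.25. Nlrp3, the sensor whose assembly Gbp5 promotes, had 8.13 and 5.08 FPKM (a difference of -0.59 in log2(FPKM + 1)). It was the 1 gene of this list past 1.5-fold, beside 1.66% lower and 1.46% higher over all genes tested. Il1b had 258 and 178 FPKM and Casp1 20.7 and 14.9.

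Markers of cell types also differed between the input libraries. Of 12 macrophage markers 9 had a value, with 7 lower and 2 higher in the cKO, a summed level of 4965 FPKM in the WT and 3350 in the cKO, and a median difference of -0.44. At least 1.5-fold lower were 4 of the 9, namely C1qa (73.1 and 28.4 FPKM, a difference of -1.34), C1qc (20.8 and 11.2 FPKM, -0.84), Mertk (11.6 and 6.29 FPKM, -0.79) and Lyz2 (-0.78). Of all 6079 genes with a mean of at least 1 FPKM, 1.66% were that much lower. The 2 higher markers were Fcgr1 (11.1 and 15.8 FPKM, 0.47) and Itgam (179 and 188 FPKM, 0.07). Most of the sum was Lyz2, the lysozyme gene into which LysM-cre is commonly inserted, at 3393 and 1980 FPKM. Only the cKO group carries this cre, so for Lyz2 a difference in the allele and one in cell content cannot be told apart. Cd68 at 695 and 634 FPKM and Adgre1 at 220 and 162 were high in both libraries, as the label of the cells has it. Mesenchymal markers summed to 112 and 200 FPKM over 6 of 10 genes, 5 of them higher, with the largest differences in Sparc (1.02), Col1a1 (0.86) and Col3a1 (0.80). Of the 12 epithelial or carcinoma markers 1 had a value, Krt19, at 7.05 and 10.8 FPKM. Of 10 markers of T and natural killer cells, the main source of interferon gamma, 1 had a value, and 0 had a mean of at least 1 FPKM. A value was held for 1 of 6 neutrophil markers, S100a8 (12.3 and 13.7 FPKM), and for 1 of 5 dendritic markers, Clec9a (1.53 and 1.29 FPKM). A marker without a value has no listed differential peak and may still be expressed. The part of these differences in the levels of the GBP and IRG genes was not tested.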

How the data were processed

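The 4 libraries were grouped by title, 1 per group, so no p-value was computed. The submitters' processing notes name mm10 and, without roles, edgeR, StringTie, ChIPseeker, HOMER, HISAT2 and fastp. Which program called peaks, and how IP was scaled to input, is not given in the sources used here. The authors deposited, per the file headers, log2 values of IP over input per peak, with p-values, and FPKM values of the input libraries for 7307 genes. Every listed peak has a p below 0.05. Starts count from 0 and are printed 1-based.

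From these files, peaks were overlapped on the same strand, placed on the listed GENCODE M21 transcript (94.9% of WT and 94.3% of cKO peaks) and searched for GGAC. Input differences are log2(FPKM + 1), cKO minus WT, at a mean of at least 1 FPKM. Other pseudocounts, minimum levels, folds and overlaps were tried. Scripts used Python 3.11.15 and pandas 2.3.3 and were tested on simulated data. The 10 genes, the lists and the tests were chosen with earlier results of these data known. All 10 genes are named, and of each of the 4 gene lists the 3 genes with the largest input difference. Ifngr1, Ifngr2, Jak2, Rab20, Irgq and the named cell type markers were added after their values were seen.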

Additional observations from a re-analysis of the deposited data

How the results depend on the processing

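No paired analysis was possible because each group has 1 library. A pseudocount or a minimum level cannot change the direction of an input difference, so these settings say nothing about direction. After centring on the median of all genes, the 8 genes with an input value were still at least 1.5-fold lower in the cKO. The number past 1.5-fold was also 8 with a pseudocount of 0.1 and without a minimum level, settings that cannot make it smaller. It was 4 with a pseudocount of 5, 5 at a mean of at least 5 FPKM, where 5 of the genes are left, and 2 at 2-fold, which 0.428% of genes reached. The median difference was -1.14 with a pseudocount of 0.1 and -0.58 with 5. With a pseudocount of 5, Gbp4, Gbp8, Gbp9 and Irgm2 were no longer past 1.5-fold. Of the 9 differential peaks, 2 lower and 1 higher had an absolute difference of at least 1. The median at peaks matched one to one changed sign, from 0.12 to -0.078, when overlap had to cover 50% of both peaks, and 12 cKO peaks then had a partner, a share of 46.2% beside 46.1% over all cKO peaks, where at 1 base it was 80.8% beside 71.3%. At a log2 of at least 1, 15 of 26 WT peaks were left, 57.7% beside 63.7% over all. Without read counts, how precise a low level such as that of Gbp8 is cannot be said.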
